A study of Mus musculus with 25 samples.

Results

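The urea cycle genes of the developing mouse liver were followed over 14 stages. The members were chosen by name, as the 6 enzymes Cps1, Otc, Ass1, Asl, Arg1 and Nags and the 2 mitochondrial carriers Slc25a15 and Slc25a13, so they are 8 of the 18194 genes measured. Each gene was read from the probe set annotated to it alone that had the highest mean over the stages. Total RNA came from whole livers of C57/B6 mice from random-bred matings. The stages were embryonic day 11.5 (E11.5) to E18.5 in daily pools, the day of birth (Day0), days 3, 7, 14 and 21 after birth (Day3 to Day21), and mature mice at 18 weeks (adult). Every stage was a single pool. It held 12 livers for E11.5, 9 for each of the next 2 days, 6 for each of the 2 days after those, and 3 from E16.5 on. The labels name no treatment or genetic change, and sex was not given in the sources used here. Of 25 arrays, 22 were technical pairs from 11 pools, and the pools of E18.5, Day7 and Day14 were run once.

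The urea cycle turns ammonia, which is toxic, into urea in hepatocytes. Nags makes N-acetylglutamate, the activator that Cps1 needs. In mitochondria Cps1 makes carbamoyl phosphate and Otc joins it to ornithine, giving citrulline, which leaves in exchange for ornithine through the carrier Slc25a15. In the cytosol Ass1 joins citrulline to aspartate, Asl splits the product into arginine and fumarate, and Arg1 splits arginine into urea and ornithine. Slc25a13, citrin, brings the aspartate out of mitochondria. The liver is the only organ with the full cycle at high activity, and some of its genes are also used in gut and kidney for arginine synthesis.

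As facts of the whole series, array medians were 42.6 to 46.3 intensity units and array means 141 to 210. The technical SD of a stage's repeat arrays was 0.11 to 0.22 log2 units over all genes. The E18.5 array stood apart in 1 respect: the mean of 9 skeletal muscle markers was 7.23 log2 units there, against 5.28 to 5.68 in the other 13 pools, and 5 of the 9 were called higher than at E17.5. Several results that rest on E18.5 are therefore also given without it or against E17.5. The part of this muscle signal in the results was not tested. Levels below are log2 intensities of a stage's pool. They compare a gene with itself across stages and not with other genes, since probe sets differ in brightness.

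Cps1, the mitochondrial entry enzyme, had pool levels of 5.58, 5.61, 5.90 and 5.91 from E11.5 to E14.5, and then of 8.84, 9.84, 11.38 and 12.67 from E15.5 to E18.5. After birth it stood at 13.17, 11.73, 12.72, 13.29 and 13.18 from Day0 to Day21 and at 12.89 in adult liver. The early fetal pools were flat and lay below all later ones, and the range from lowest to highest pool was 210-fold. Arg1, the enzyme that releases urea, had nearly the same course. Its levels were 5.38, 5.26, 5.60, 5.50, 8.37, 9.51, 10.74 and 12.14 in the 8 fetal pools and 12.93, 10.50, 11.93, 12.95, 13.02 and 12.82 in the 6 later ones, a 216-fold range. Over the 14 pools the profiles of Arg1 and Cps1 had a Pearson r of 0.996, the highest of the 28 pairs of members. This r is a description over pools that share their arrays. From E11.5 to E14.5 single arrays read 43.6 to 64.8 intensity units for Cps1 and 35.0 to 51.6 for Arg1. These values lie near the array medians of 42.6 to 46.3, so the flat start and the fold ranges depend on a dim level.

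Otc, which makes citrulline, rose unevenly before birth, most at E15.5 and at E18.5. Its levels were 6.23, 6.90, 7.64, 7.28, 8.59, 8.83, 8.92 and 10.23 from E11.5 to E18.5. Otc then stood at 6.87 on Day0, at 9.97 on Day3 and at 11.63, 11.51, 11.82 and 11.13 in the last 4 stages. The Day0 pool was thus as low as the E12.5 pool, and Otc was the only member whose Day0 pool lay below its E18.5 pool. The carrier Slc25a15 was level before birth, at 8.84, 8.55, 8.47, 8.66, 8.33, 8.17, 8.85 and 9.22, and stood at 11.18, 9.77, 11.11, 11.21, 11.13 and 10.91 afterwards. All 6 postnatal pools of this carrier lay above all 8 fetal pools. Its profile was the least like that of Otc among the members (r = 0.632).

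Asl, which releases arginine, dipped early and rose late, with fetal levels of 7.81, 7.05, 7.03, 7.22, 7.72, 7.80, 8.32 and 9.57 and postnatal levels of 11.73, 9.57, 10.49, 11.48, 11.85 and 11.68. Its 2 classes of pools also did not overlap, but only by 0.0046 log2 units between Day3 and E18.5. Slc25a13 followed a like early dip, at 8.38, 7.88, 7.73, 7.68, 8.36, 8.63, 9.34 and 10.54, and was the only member to peak at Day7, at 10.64, 9.97, 11.03, 10.40, 10.26 and 10.20 from Day0 to adult. Nags, which makes the activator of Cps1, rose slowly through fetal life, at 5.78, 5.58, 5.94, 5.96, 6.40, 6.37, 6.64 and 6.66, and moved up at Day7, with 6.86, 6.63, 7.82, 7.86, 8.04 and 8.24 after birth. It was the only member whose highest pool was the adult one.

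Ass1, which uses the aspartate, was read from a dim probe set with levels of 5.81, 6.05, 6.26, 6.09, 6.16, 6.41, 6.40 and 6.70 before birth and 6.90, 6.31, 6.69, 7.72, 7.56 and 7.16 after it. A brighter set is annotated to both Ass1 and Gm5424, and cannot be assigned to either. That set moved far more, with its lowest pool at 7.27 (E12.5) and its highest at 13.08 (Day21), so the small range of Ass1 here, 3.74-fold, belongs to 1 probe set. Neighbours in the order of levels often lay closer than the spread of repeat arrays of that gene, in 5 (Nags) to 10 (Slc25a15) of 13 gaps. The highest pool of Arg1 and of Slc25a15 had 3 other pools within that spread, that of Cps1 and of Asl had 2 and that of Otc had 1.

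**Figure D1:**
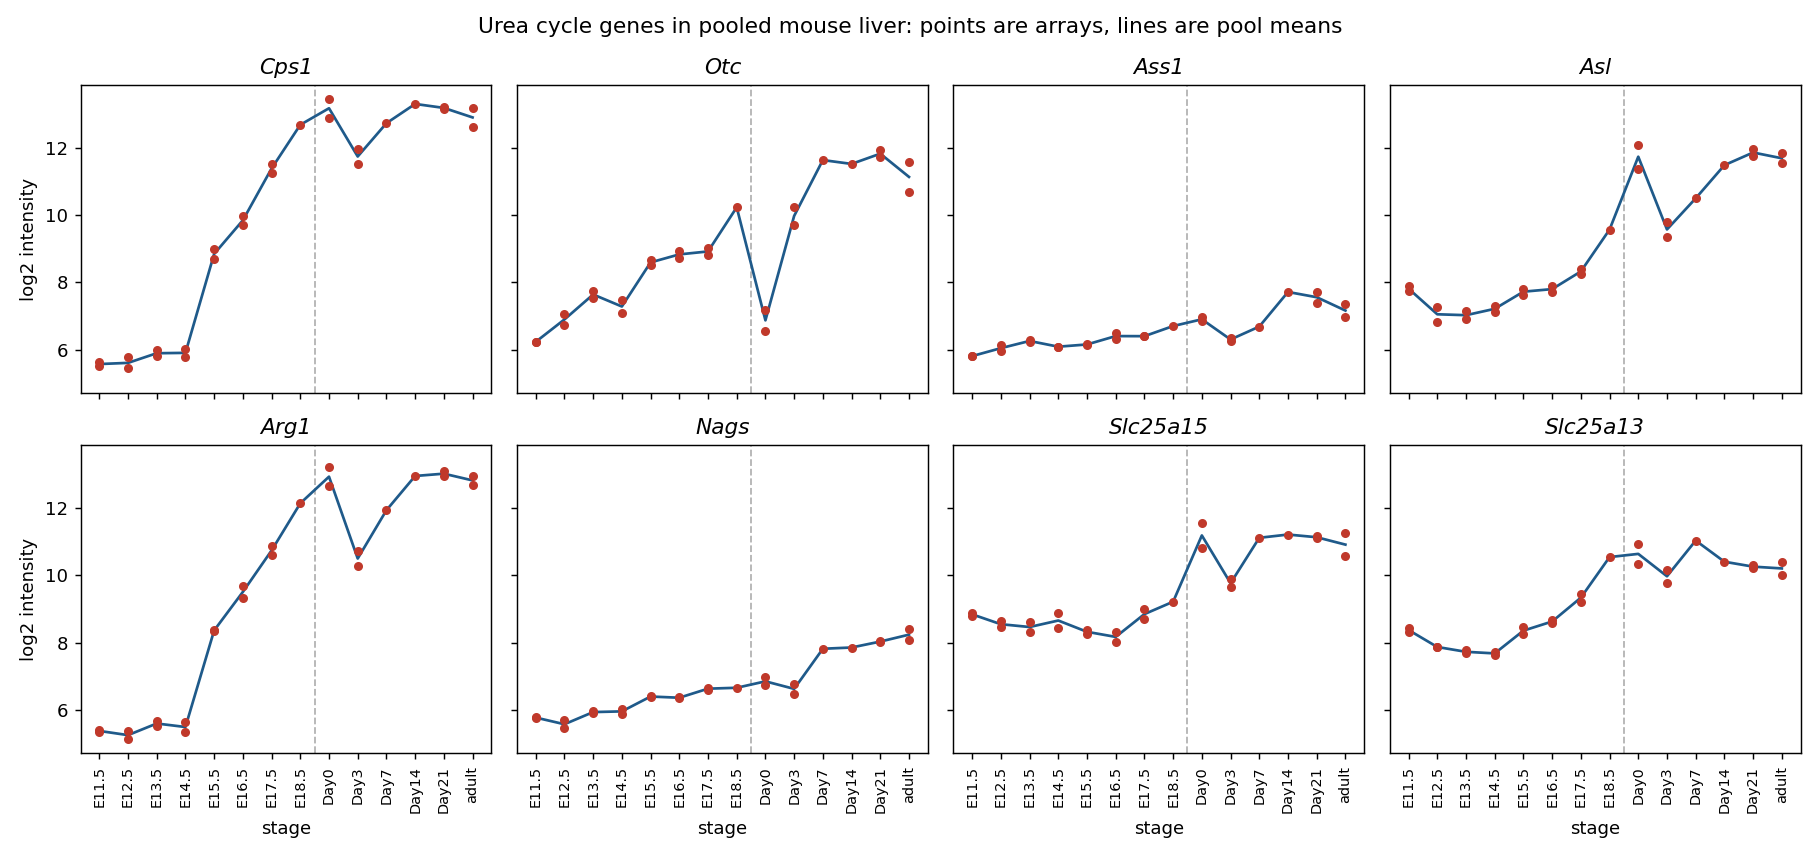
Log2 intensity (y) of the 8 urea cycle genes at 14 stages (x); points are single arrays, lines join pool means and the dashed line marks birth. Cps1 and Arg1 climb from E15.5, Otc drops at Day0 to 6.87, and Slc25a15 stays at 8.17 to 9.22 until birth.

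Onset was placed at the first stage whose pool reached the middle of the gene's own log2 range. By this rule Cps1 and Arg1 came first, at E16.5. Otc, Asl and Slc25a13 followed at E18.5, Ass1 and Slc25a15 at Day0, and Nags at Day7. The order ran over 5 stage steps. At E15.5 Cps1 had covered 42.3% of its range, Otc 42.2% and Arg1 40%, whereas Slc25a15 stood at 5.0% and Asl at 14.5%.

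The order depended on the scaling. With arrays set to equal levels of 12 genes of secreted hepatocyte proteins it turned round: Asl, Ass1, Nags, Slc25a13 and Slc25a15 were at or above their middle at E11.5, Otc at E12.5, and Cps1 and Arg1 came last, at E17.5. With quantile normalisation Otc joined Cps1 and Arg1 at E16.5, Slc25a13 was at E17.5 and Ass1 at Day14. The set shared by Ass1 and Gm5424 reached its middle at E17.5, against Day0 for the set of Ass1 alone.

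The order also depended on the level chosen. Taking the first pool at least 1 log2 unit above E11.5, Otc came first, at E13.5, before Cps1 and Arg1 at E15.5, Asl and Slc25a13 at E18.5 and Ass1, Nags and Slc25a15 at Day0. Taking 50% of the highest intensity on the linear scale, Cps1, Arg1 and Slc25a13 were at E18.5, Ass1, Asl and Slc25a15 at Day0, and Otc and Nags at Day7. Cps1 and Arg1 shared a stage under all 3 definitions. Ass1 and Slc25a15 were at Day0 and Slc25a13 at E18.5 in each. Ass1 was below its middle (6.76) again on Day3 (6.31) and Day7 (6.69). Where a gene had to stay at or above its middle, Ass1 moved to Day14 and Otc to Day3. Without the E18.5 pool the onset of Otc moved to Day3 and those of Asl and Slc25a13 to Day0. Nags lay just under its middle (6.91) on Day0, at 6.86. Its onset moved to Day0 without the replicate 2 arrays or without the adult pool. It moved to Day14 without Day7 and to Day21 without the stages that had 1 array. That of Ass1 moved to E18.5 without Day14 and to Day14 without Day0. These are descriptions of single pools, with no test.

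**Figure D2:**
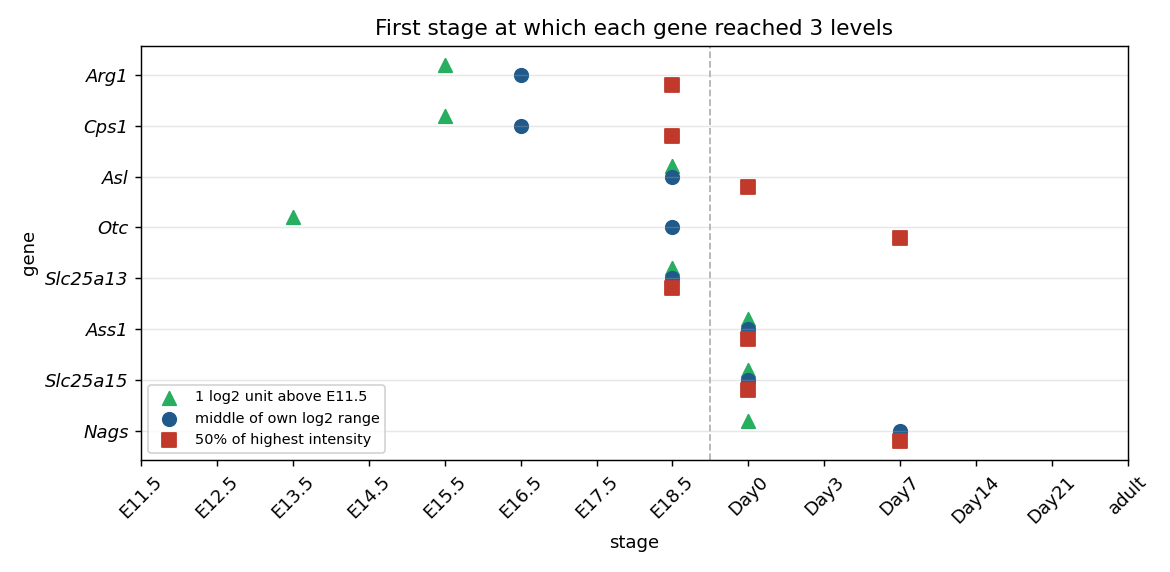
Stage (x) at which each gene (y) first reached 1 log2 unit above E11.5 (triangles), the middle of its own log2 range (circles) and 50% of its highest intensity (squares). Cps1 and Arg1 precede the others on the middle level, at E16.5, while Otc spreads from E13.5 to Day7. At equal hepatocyte secretory levels Cps1 and Arg1 come last instead.

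Within fetal life, a linear trend through E11.5 to E18.5 showed which members rose on balance. Of the 8 members 6 rose and none fell (limma, adjusted p under 0.05 over all genes and at least 1 log2 unit over the span). Of all genes 4.4% were called rising and 12% falling. The median fitted change of the members was 1.97 log2 units, beside 0.04 over all genes. Cps1 rose by 7.77 ± 0.91 (SE, n = 8 pools; adjusted p = 0.00142) and Arg1 by 7.44 ± 0.91 (adjusted p = 0.00155). Otc rose by 3.58 ± 0.35, a fitted 11.9-fold, with an adjusted p of 0.00104 in limma. The citrin gene Slc25a13 (2.15 ± 0.62), Asl (1.79 ± 0.57) and Nags (1.10 ± 0.15) rose less. Ass1 stood at 0.71 ± 0.13, under the size needed for a call, and Slc25a15 at 0.24 ± 0.33 (limma adjusted p = 0.605).

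The calls of the smaller changes depended on single pools. Without E18.5 the fitted changes were 0.93 for Asl and 1.25 for Slc25a13, neither called, and 4 members were called. Without E12.5 only 3 members were called, since Asl (1.72), Slc25a13 (2.20) and Nags (0.99) lost their calls. Asl also lost it without any 1 of E13.5 to E17.5 (1.66 to 1.91), and Slc25a13 without E13.5 (2.04) or E17.5 (2.15). In these cases other than E18.5 the fitted change stayed close to that with all pools and the adjusted p or, for Nags, the size missed the threshold. The Asl call was also lost with arrays centred on the median (1.72; limma adjusted p = 0.0593) and without the replicate 2 arrays (1.73; limma adjusted p = 0.0548). The mean of 12 genes of secreted hepatocyte proteins rose over the same days, being 10.59 at E11.5 and 13.39 at E18.5, and 10 of them were called rising. Of 9 macrophage markers 8 were called rising as well, with a median of 2.75, and their part in the members' rise was not tested. With arrays set to equal levels of those 12 genes, which put the median of all genes at -3.09, Cps1 (4.65) and Arg1 (4.31) still rose, Otc stood at 0.45 and the other 5 turned sign, at -2.89 to -0.98. In whole liver, fewer hepatocytes and less RNA per hepatocyte cannot be told apart.

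Steps between neighbouring stages were then compared on all 25 arrays, with errors from technical repeats alone. Of the 104 pairs of member and step 26 were called, 21 up and 5 down, and 2.88% of all pairs of gene and step were called. No member was called at the 3 steps up to E14.5. Over these steps 1.71%, 0.187% and 0.0385% of all genes were called higher, and 1.04%, 0.852% and 0.0055% lower. At E15.5, against E14.5, 3 members rose, where 1.28% of all genes did. Cps1 read 9.00 and 8.69 on the 2 arrays of E15.5, against 5.80 and 6.02 on those of E14.5, a 7.65-fold rise (2.94 ± 0.21 log2 units, SE; limma adjusted p = 3.81e-07). Arg1 read 8.37 and 8.36 at E15.5, against 5.66 and 5.34 at E14.5, a 7.29-fold rise (limma adjusted p = 1.41e-07). Otc read 8.67 and 8.52 at E15.5, against 7.48 and 7.09 at E14.5, which is 1.31 ± 0.26 (limma adjusted p = 0.00364). None of the 3 had overlapping arrays at this step. Among the 12 hepatocyte secretory genes 8 rose at the same step, and 4 of 9 macrophage markers did. With arrays set to equal levels of those 12 secretory genes, Cps1 (1.43) and Arg1 (1.36) were still called at E15.5. Otc stood at -0.20, the opposite sign, where the median of all genes was -1.49. No member fell at this step, where 1.17% of all genes did.

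The rise then went on for some members. At E16.5 Arg1 alone was called (1.14, limma adjusted p = 0.0114), but not without either array of E15.5 (1.14 to 1.15) or the replicate 1 array of E16.5 (0.98). At E17.5 Cps1 (1.54) and Arg1 (1.23) rose, and Arg1 lost its call without replicate 2 of E16.5 (1.06) or replicate 1 of E17.5 (1.10). At E18.5, against E17.5, Cps1 (1.30), Otc (1.31), Asl (1.24), Arg1 (1.40) and Slc25a13 (1.21) rose, 5 of 8 where 2.32% of all genes did. That step compares a single E18.5 array, the one with the muscle signal. The arrays of E16.5 were called higher than those of E15.5 for 0.187% of all genes, and those of E17.5 than of E16.5 for 0.709%. No member fell at these 3 steps, where 0.0495%, 0.0385% and 1.8% of all genes did. At equal hepatocyte secretory levels the 5 changes at E18.5 were 0.80 to 0.99. Those of Arg1 were 0.998 at E16.5 and 0.75 at E17.5, and all of these were under the size needed for a call. The rise of Cps1 at E17.5 was still called at this scaling (1.06, limma adjusted p = 0.0010). The median of all genes at this scaling was -0.15 at E16.5, -0.48 at E17.5 and -0.40 at E18.5. Quantile normalisation also ended 4 of the 5 calls at E18.5, with Arg1 at 0.88, Cps1 at 0.90, Otc at 0.96 and Slc25a13 at 0.83. With the median of all probe sets of a gene Otc stood at 0.54 there.

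**Figure D3:**
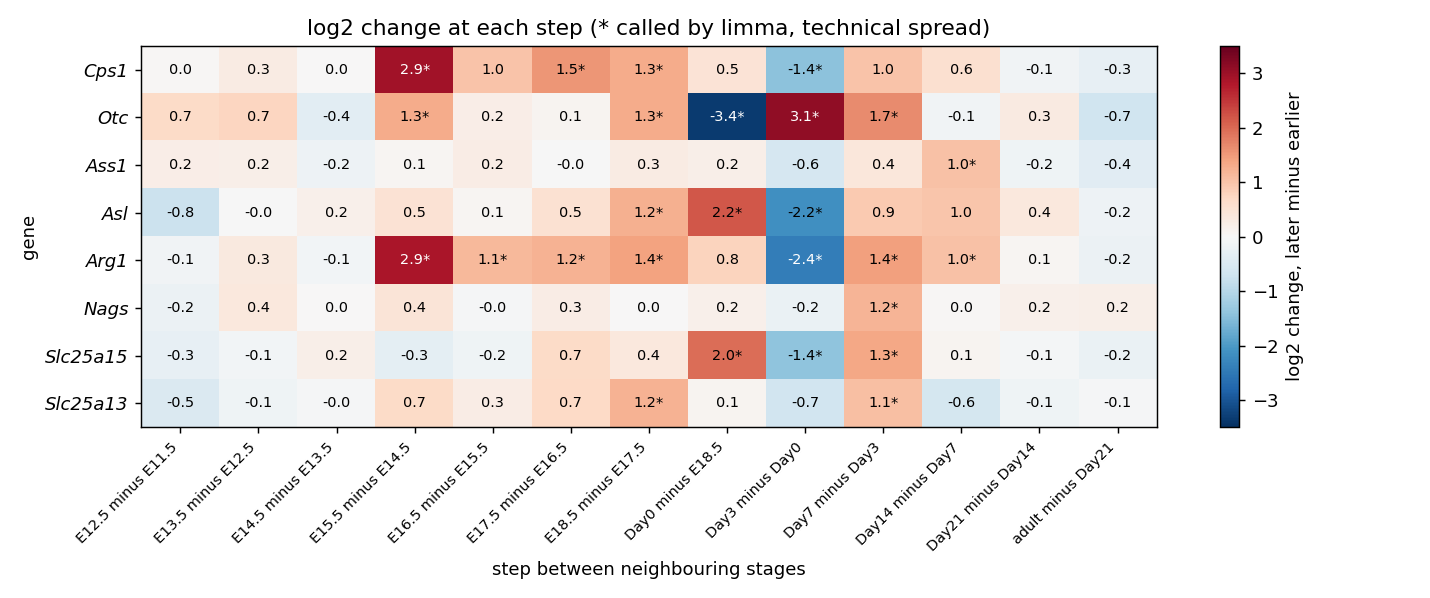
Log2 change from each stage to the next (x) for each gene (y), red for higher and blue for lower at the later stage; asterisks mark calls by limma on technical spread. Otc goes against the other genes at Day0 (-3.35) and at Day3 (3.10).

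On the day of birth the members parted. Asl read 12.08 and 11.38 on the Day0 arrays, against 9.57 at E18.5, a rise of 2.16 ± 0.26 (SE; limma adjusted p = 3.68e-05). Slc25a15 read 11.54 and 10.82 on Day0, against 9.22 at E18.5, a rise of 1.97 ± 0.29 (limma adjusted p = 0.000218). Both were clearly above the earlier array, while 3.63% of all genes were called higher. Otc read 7.18 and 6.56 on Day0, against 10.23 at E18.5, a 10.2-fold fall (-3.35 ± 0.32; limma adjusted p = 3.97e-06), where 2.25% of all genes fell. Arg1 (0.79), Cps1 (0.49), Ass1 (0.20), Nags (0.19) and Slc25a13 (0.09) were not called. At the same step 5 of 9 muscle markers and 3 of 12 erythroid markers fell, and no hepatocyte secretory gene was called. At equal hepatocyte secretory levels Otc stood at -3.15, Asl at 2.37 and Slc25a15 at 2.17.

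The Otc fall did not rest on E18.5 or on 1 probe set. Against the 2 arrays of E17.5, 9.01 and 8.82, the Day0 value was lower by 4.12-fold (-2.04; limma adjusted p = 5.46e-05), and 1.26% of all genes fell between these stages. In that comparison 5 members rose, where 2.61% of all genes did, among them Asl (3.40), Slc25a15 (2.33) and Arg1 (2.19). The other bright set of Otc read 5.88 and 6.18 on the Day0 arrays, against 8.93 at E18.5, so both sets had lower values on Day0. A further Otc set was dim throughout, between 4.39 and 4.93, and did not show the fall. A second Slc25a15 set was 2.62 higher on Day0 than at E18.5.

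By Day3 most of this had turned back. Otc read 10.23 and 9.71 on Day3, against 7.18 and 6.56 on Day0, an 8.56-fold rise (3.10 ± 0.26; limma adjusted p = 8.95e-07), where 1.81% of all genes rose. Arg1 fell by 2.43, Asl by 2.16, Cps1 by 1.43 and Slc25a15 by 1.42 log2 units, 4 of 8 where 1.1% of all genes fell. Their Day0 and Day3 arrays did not overlap. With the Day0 pool left out, Day3 set against E18.5 showed 1 call, a fall of Arg1 (-1.64; limma adjusted p = 9.53e-05), where 1.56% of all genes fell and 3.01% rose. Otc then stood at -0.26 and Asl at 0.0046. Cps1 was 0.94 lower on Day3 than at E18.5, under the size needed for a call (limma adjusted p = 0.0105). The Day0 values of Otc and Asl come from 1 pool of 3 livers, read on 2 arrays.

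Promoters are shown because Otc fell at birth while Slc25a15 rose and Nags and Ass1 were not called. RefSeq (GRCm38.p6) promoter windows were found for 5 of the 8 members, Otc, Ass1, Nags, Slc25a15 and Slc25a13. The 250 bases before the start site are printed 5′ to 3′. Capitals mark a GC box (GGGCGG) or a nuclear receptor half-site (AGGTCA), on either strand.

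Otc, chrX:10252055-10252304, plus strand: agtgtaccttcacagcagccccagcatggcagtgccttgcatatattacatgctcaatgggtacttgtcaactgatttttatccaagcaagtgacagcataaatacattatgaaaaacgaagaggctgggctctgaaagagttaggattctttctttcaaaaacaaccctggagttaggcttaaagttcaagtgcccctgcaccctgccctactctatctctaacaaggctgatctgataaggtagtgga
Slc25a15, chr8:22398622-22398871, minus strand: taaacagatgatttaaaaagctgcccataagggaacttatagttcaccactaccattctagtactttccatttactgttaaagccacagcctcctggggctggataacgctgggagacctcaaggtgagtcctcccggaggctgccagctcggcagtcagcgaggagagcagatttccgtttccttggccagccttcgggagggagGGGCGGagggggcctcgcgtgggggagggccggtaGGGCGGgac
Nags, chr11:102145263-102145512, plus strand: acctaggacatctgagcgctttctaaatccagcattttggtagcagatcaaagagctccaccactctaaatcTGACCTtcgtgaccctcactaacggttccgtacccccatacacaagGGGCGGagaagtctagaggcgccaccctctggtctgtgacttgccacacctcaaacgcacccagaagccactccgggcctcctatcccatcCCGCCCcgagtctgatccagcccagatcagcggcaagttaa
Ass1, chr2:31470020-31470269, plus strand: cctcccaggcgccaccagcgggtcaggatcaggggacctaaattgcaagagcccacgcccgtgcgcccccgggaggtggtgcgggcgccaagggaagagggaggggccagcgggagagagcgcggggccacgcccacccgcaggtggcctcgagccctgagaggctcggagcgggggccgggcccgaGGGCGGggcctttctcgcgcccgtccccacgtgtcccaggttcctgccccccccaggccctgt

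The Otc window held 1 CG dinucleotide, and 18.8% of the 32851 RefSeq windows of this length held as many or fewer. Windows of Slc25a15, Nags and Slc25a13 held 11 each and that of Ass1 held 23, beside a median of 6. Of all windows 66.5% held 11 or fewer and 88.0% held 23 or fewer. Slc25a13, whose window is not printed, was not called on Day0 either. A GC box stood in the windows of Slc25a15, Nags and Ass1, not in that of Slc25a13, and in 32.7% of all windows. The nuclear receptor half-site stood in that of Nags, and in 14.0% of all. Of the other motifs searched on both strands, a CCAAT box stood in the Slc25a13 window and in 33.8% of all. The TATA box (TATAAA), the cores bound by C/EBP (TTGCNNAA), the glucocorticoid receptor (TGTTCT), cAMP-responsive factors (TGACGT) and HNF1 (GTTAAT) were not found in these windows. None of the searched motifs was found in the Otc window, which says only that these letters are not there. Slc25a15 has a second RefSeq start, whose window held 43 CG dinucleotides and 5 GC boxes, the last 2 of which overlap.

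From Day3 to Day7 Otc rose again (1.66), with Arg1 (1.43), Slc25a15 (1.35), Nags (1.19) and Slc25a13 (1.06), 5 of 8 where 3.32% of all genes rose. Day7 had 1 array, and Slc25a13 was not called without replicate 2 of Day3 (0.87). Slc25a13 was also under 1 log2 unit with quantile normalisation (0.59), equal housekeeping levels (0.91) and equal secretory levels (0.86), as were Slc25a15 with quantile normalisation (0.89) and Nags at equal secretory levels (0.99). At this step 10 of 12 erythroid markers fell, with a median of -2.37, and 2 of 9 macrophage and 2 of 8 stellate markers rose. Of 5 kidney markers 2 also rose. The mean of those 5 was 5.90 on the single Day7 array, against at most 4.92 in any other pool. From Day7 to Day14, each with 1 array, Ass1 (1.03) and Arg1 (1.02) rose, where 1.16% of all genes did. Both were under 1 log2 unit with arrays centred on the median (Ass1 0.99, Arg1 0.98), and the set shared by Ass1 and Gm5424 stood at 0.69. At Day14 6 of 12 erythroid, 4 of 9 macrophage and 2 of 5 kidney markers fell, and 2 of 6 pancreas markers rose. The part of these cells and tissues in the members' changes was not tested. No member fell at these steps, where 2.84% and 4.57% of all genes did. Nothing was called from Day14 to Day21 or from Day21 to adult liver, where changes of the members lay between -0.69 (Otc) and 0.38 (Asl). Of all genes 3.03% rose and 0.528% fell at Day21, and 0.61% rose and 1.2% fell in adult liver. A linear trend after birth, through the 6 pools, called neither a member nor any other gene (limma, 0%), while 2 members, Otc (4.20 ± 1.53) and Nags (1.67 ± 0.44), had an unadjusted p under 0.05 (limma adjusted p = 0.308 and 0.197).

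Postnatal pools were set against fetal pools as classes. Here 7 of 8 members were higher after birth and none lower, where 5.01% of all genes were called higher and 4.5% lower (limma). The median difference of the members was 2.33 log2 units, beside 0.01 over all genes. Cps1 averaged 12.83 ± 0.58 in postnatal pools (SD, n = 6) and 8.22 ± 2.86 in fetal pools (SD, n = 8), a difference of 4.61 ± 1.12 (SE). Arg1 averaged 12.36 ± 1.0 after birth and 7.81 ± 2.75 before it, a difference of 4.54 ± 1.11. For both, E18.5 lay within the postnatal range. Slc25a15 differed by 2.25 ± 0.23, the lowest adjusted p of the members (9.56e-05, limma), and Asl by 3.32 ± 0.44. Only these 2 had no overlap between classes, in the direction in which 2.52% of all genes had none.

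Otc averaged 10.49 ± 1.89 after birth and 8.08 ± 1.30 before it, a difference of 2.41 ± 0.80 (limma adjusted p = 0.0468). It was 3.13 without Day0, and lost its call without any 1 of the other pools except E18.5 (2.14 to 2.53). Slc25a13 (1.85 ± 0.39) and Nags (1.41 ± 0.27) were higher too, and Ass1 stood at 0.82 ± 0.21, under the size needed for a call. Setting arrays to equal hepatocyte secretory levels put the median of all genes at -1.41, with 237 genes called higher and 15663 lower. Then 3 members were called higher, Cps1 (3.18), Arg1 (3.12) and Asl (1.89), and Ass1 (-0.61) and Nags (-0.023) turned sign. The mean of 12 erythroid markers was 6.04 to 9.68 in postnatal pools and 9.41 to 10.93 in fetal pools, with 11 of them lower after birth. The part of the blood cells in these differences was not tested. Over all 14 stages a spline called all 8 members, where 29.8% of all genes were called, with fitted ranges of 1.60 (Ass1) to 8.52 (Cps1).

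Gut, which uses Cps1 and Otc, was checked by 7 markers. Of these 1 was higher after birth, Fabp2, which read 8.56 on average in postnatal pools and 5.16 in fetal pools. Others stayed dim, such as Cdx2 (4.98 postnatal, 5.02 fetal) and Vil1 (5.06 postnatal, 5.05 fetal). Means of 6 pancreas markers were 6.52 to 7.53 after birth, highest at Day14, and 6.26 to 6.65 before it. Those of 5 kidney markers were 4.76 to 5.90 after birth, highest at Day7, and 4.72 to 4.88 before it. Of 9 macrophage markers 3 were higher after birth, of 8 endothelial markers 2, of 8 stellate markers 1 and of 4 bile duct markers none.

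Genes around the cycle were grouped by role. Of 17 measured genes of amino acid breakdown, which frees ammonia, 13 were higher after birth and 1 lower, with a median difference of 2.80. They included Tdo2 (5.29 ± 1.32), which opens tryptophan, Tat (4.87 ± 0.48) and Hpd (4.79 ± 1.01) of tyrosine breakdown, and Hal (3.47 ± 0.48) and Amdhd1 (3.30 ± 0.38) of histidine breakdown. Fah, the last enzyme of tyrosine breakdown, differed by 3.12 ± 0.81. The single lower gene, asparagine synthetase Asns (-2.24 ± 0.46), is not a breakdown enzyme. Like Cps1, Arg1 and Otc, Hpd rose at E15.5, by 3.15 log2 units against E14.5.

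Of 16 genes that carry nitrogen through glutamate and glutamine, 5 were higher and 1 lower, where 4.5% of all genes were called lower. Higher were Got1 (3.67 ± 0.53), which makes aspartate, the glutamine carrier Slc38a3 (3.02 ± 0.51), the alanine aminotransferase Gpt (1.47 ± 0.41), glutamine synthetase Glul (1.15 ± 0.18) and Aldh4a1 (1.09 ± 0.28) of proline breakdown. The glutamine carrier Slc38a5 was lower (-2.04 ± 0.41), and Gpt2 (1.31) and Prodh (1.25) were not called. Slc25a12 is the paralog of Slc25a13 used in muscle and brain. It was the only gene of this list called falling over fetal life (-1.02 ± 0.16), while Slc25a13 rose. Slc38a5, not called there, stood at 9.26 at E11.5 and at 7.73 at E18.5.

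Of 16 genes that use arginine or ornithine otherwise, 3 were higher and 3 lower after birth. Agmat (2.0 ± 0.30), Gamt of creatine synthesis (1.64 ± 0.46) and Sat1 of polyamine breakdown (1.39 ± 0.28) were higher. The arginine methyltransferase Prmt1 (-1.87 ± 0.52), Odc1, which starts polyamine synthesis (-1.60 ± 0.39), and the stabiliser of its product Azin1 (-1.21 ± 0.23) were lower. The ornithine aminotransferase Oat (1.37) and spermidine synthase Srm (-1.32) were not called. Arg2, the mitochondrial arginase, named after its values were seen, lay between 4.44 and 4.92 in all 14 pools on its brighter set.

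Among 12 carriers of urea, arginine and related molecules 3 were higher and 2 lower. Aqp9, a channel for glycerol and urea, differed by 3.75 ± 0.43 and the dicarboxylate carrier Slc25a10 by 1.17 ± 0.18. The arginine carriers went opposite ways: Slc7a2, the liver form, was higher (2.47 ± 0.51) and Slc7a1 was lower (-1.53 ± 0.38). They also did so over fetal life, at 3.23 ± 0.39 and -2.34 ± 0.27. Slc14a1, a urea transporter of red cells and vessels, was lower (-1.73 ± 0.47), as the red cell markers were. Slc25a11 (0.87) and Slc3a2 (-0.79) were not called.

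Of 19 regulators 8 were higher and 1 lower. The higher ones included the bile acid receptor Nr1h4 (2.50 ± 0.38), the mitochondrial deacylase Sirt3 (2.46 ± 0.33), Klf15 (2.05 ± 0.42), which promotes amino acid breakdown in fasting, and the coactivator Ppargc1a (1.69 ± 0.42). The glucagon receptor Gcgr (1.62 ± 0.27) and Cebpb (1.41 ± 0.37) were higher as well. The single lower gene was Nfya (-1.31 ± 0.31), and Cebpa (0.93) and Sp1 (-0.97) were not called.

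At birth these genes also parted, and those named here were chosen after their values were seen. On Day0, against E18.5, Got1 (3.59), Tat (2.73), Ppargc1a (2.62), Cebpd (1.88), Oat (1.27) and Slc7a2 (1.25) rose. Tdo2 (-3.15), Cebpa (-2.19), Gamt (-1.39) and Glud1 (-1.09) fell, as Otc did. The fall of Tdo2 rested on the E18.5 array: its Day0 pool, at 6.08, lay below E18.5 (9.23) but above E17.5 (4.04). Cebpa and Gamt were at 8.04 and 6.59 on Day0, below their E17.5 pools of 9.46 and 7.97. Against E17.5 the gaps of Glud1 (11.08 on Day0, 11.74 at E17.5) and Slc7a2 (9.88 and 8.97) were smaller than against E18.5. Day0 and E17.5 pools were 12.78 and 8.07 for Got1, 11.78 and 6.64 for Tat, and 7.85 and 5.24 for Ppargc1a. They were 8.93 and 7.41 for Cebpd, and 10.11 and 8.04 for Oat. Cebpa and Cebpd encode related transcription factors, and they changed in opposite directions: Cebpa stood at 8.04 on Day0, against 10.23 at E18.5, and Cebpd at 8.93 on Day0, against 7.06 at E18.5. By Day3 Cebpa (1.86), Gamt (2.02) and Glud1 (1.11) rose again, and Ppargc1a (-2.58), Cebpd (-2.53), Got1 (-3.60), Oat (-1.94), Tat (-1.67) and Slc7a2 (-1.14) fell. In counts, 4 of 17 amino acid breakdown genes rose on Day0 and 2 fell, where 3.63% of all genes rose and 2.25% fell. Of the 16 glutamate and glutamine genes 3 rose and 1 fell. Of the 16 genes that use arginine or ornithine otherwise, 1 rose and 3 fell. Among the 12 carriers 1 rose and none fell. Among regulators 2 of 19 rose and 2 fell, and among the 12 hepatocyte secretory genes none was called in either direction (limma).

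**Figure D4:**
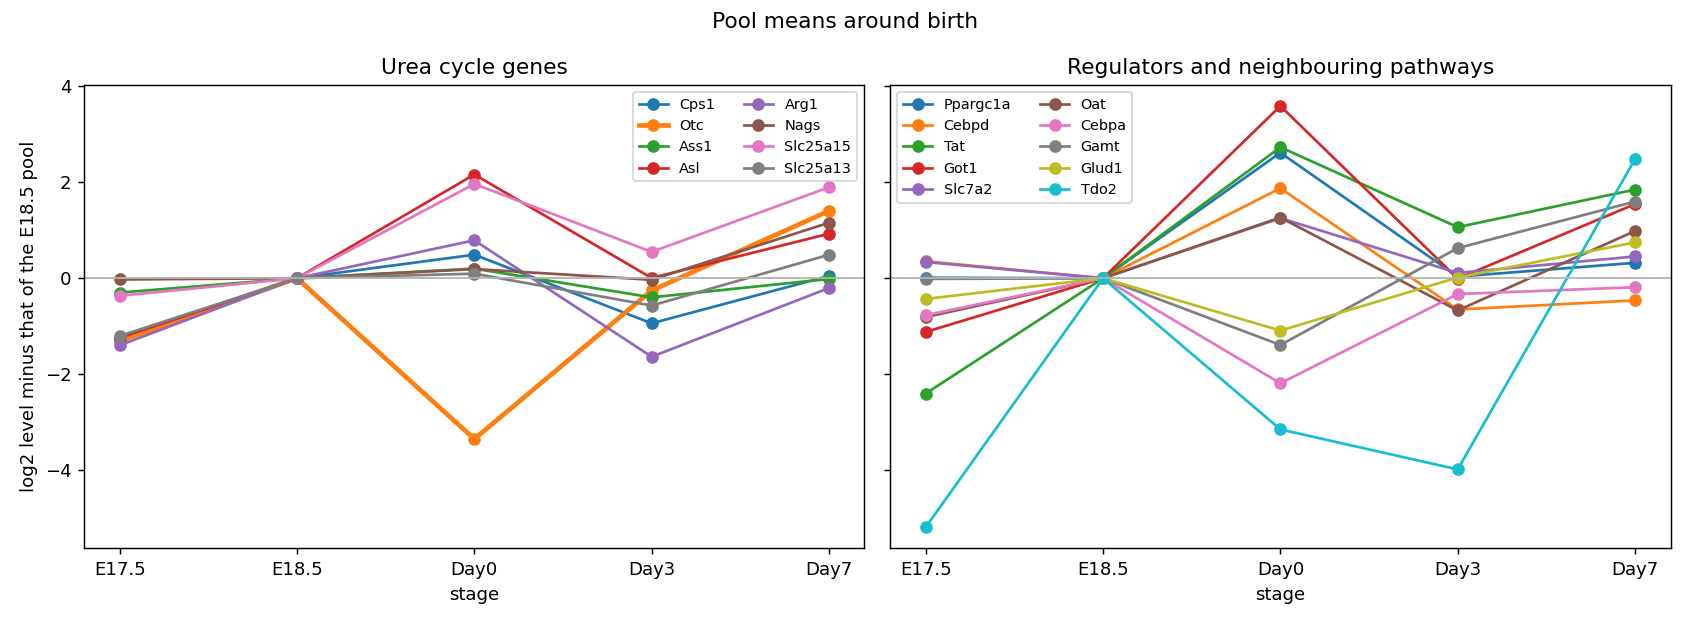
Pool level minus that of the E18.5 pool (y, log2 units) from E17.5 to Day7 (x), for the members (left) and for 10 genes of regulators and neighbouring pathways picked for their Day0 change (right). Otc lies at -3.35 on Day0 while Asl and Slc25a15 lie at 2.16 and 1.97; Cebpa (-2.19) and Tdo2 (-3.15) also lie below 0, and Tdo2 is high in the E18.5 pool against E17.5.

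Likeness of profile was described with Pearson r over the 14 pools, among 9988 genes with a mean log2 level of at least 6. To the mean profile of the members, the closest genes were Dpyd of pyrimidine breakdown (0.990), the clotting factor F9 (0.990), the vitamin E carrier Ttpa (0.990), the folate enzyme Aldh1l1 (0.987) and Hgd of tyrosine breakdown (0.986). For single members, the closest were Hpd to Cps1 (0.994), Gnmt to Arg1 (0.989), Kmo to Nags (0.986), Ugt2b36 to Otc (0.984) and Cdo1 to Asl (0.982). Further pairs were Hpgd with Slc25a13 (0.980), Prxl2c with Slc25a15 (0.979) and Adh7 with Ass1 (0.946). The profiles share their arrays and a common trend in development.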

How the data were processed

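Affymetrix whole-genome arrays of pooled livers were used. RMA was applied by the authors, per the submitters' processing notes, and each deposited value is an intensity, not a logarithm, between 12.6 and 25175. No version or setting of RMA was given in the sources used here. Tests were run on the log2 of the deposited intensity, with no pseudocount. Of 45101 probe sets 34958 carried 1 symbol, 932 several and 9211 none. Symbols come from the platform's annotation, checked against RefSeq by Entrez identifier (0 changed, 162 genes without a match).

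Arrays of a stage were averaged, and pools served as replicates of a class. Fits used limma 3.58.1 (lmFit, eBayes) in R 4.3.3 over 18194 genes, with Benjamini-Hochberg adjustment. Calls required an adjusted p below 0.05 and 1 log2 unit or more. The fits were tested on simulated data. All 8 members passed the filter of a mean of 6 log2 units that an alternative used. The spline had 3 degrees of freedom, and the slope after birth ran over log2(day + 1) with 18 weeks as 126 days. Members and lists were chosen with earlier results of these data known. Named genes were all members, up to 6 called and 2 uncalled genes a list, and the genes closest in profile. Asns and Nfya, as the single lower genes of their lists, Arg2, Cdx2, Vil1 and Fabp2, and the genes named at birth were named after their values were seen. Replicate numbers were not taken as pairs: deviations of same-numbered arrays correlated at -0.57 to 0.73 between stages, with 38 of 55 pairs of stages above 0.1. P-values measure the spread between pools or technical repeats, not animals.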

Additional observations from a re-analysis of the deposited data

Results flagged for a closer look

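Among 16 groups of pools, the fetal and the postnatal pools of each member, 3 had a pool far from the others. Chance gives about 1 in 20 groups of this kind. The groups share their pools and are not independent, so 3 of 16 cannot be set against that share. The flags of Cps1 and Slc25a15 both fall on the Day3 pool. Cps1 stood at 11.7 on Day3, the lowest postnatal pool, with the nearest at 12.7. Otc stood at 6.87 on Day0, with the nearest postnatal pool at 9.97. Slc25a15 stood at 9.77 on Day3, with the nearest at 10.9. The fit of postnatal against fetal pools gave Otc 2.41 with Day0 and 3.13 without it, and Cps1 and Slc25a15 were called in each case when Day3 was left out.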

How the results depend on the processing

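Counts of called members kept within 1.5 times for most settings. Equal hepatocyte secretory levels gave 3 called members after birth against before it in place of 7. Of all 18194 genes 237 were then called higher and 15663 lower. In the postnatal course this scaling gave 2 in place of 0 (Otc 4.66, Nags 2.14), where 198 genes rose and 96 fell. In the fetal course it also gave 6, but 2 of them rising and 4 falling, where 111 genes rose and 17809 fell. Leaving out 1 pool, or all arrays of 1 replicate number, gave 6 to 7 for postnatal against fetal, 3 to 6 for the fetal course, 0 for the postnatal course, 8 for all stages and 3 to 6 stage steps of onset order. Leaving out single arrays gave 25 to 28 called steps. Onset spanned 5 stage steps, and 6 with quantile normalisation, equal secretory levels, a pool staying above the middle, or 1 log2 unit above E11.5. At equal secretory levels the order reversed, with Cps1 and Arg1 last, but the members placed at E11.5 had falling fetal slopes there and so no dated rise. It spanned 3 at 50% of the highest intensity and 7 without the 3 stages that had 1 array. With a replicate block 26 steps were called, as without it, and it changed no other call. Day0 left out gave 19 called steps of 96.

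At equal secretory levels the sign turned for Ass1 (-0.61) and Nags (-0.023) after birth against before it, for Asl (-1.34), Ass1 (-2.42), Nags (-2.03), Slc25a13 (-0.98) and Slc25a15 (-2.89) in the fetal course, for Slc25a13 in the postnatal course (0.14) and for Otc at E15.5 (-0.20). The median gene stood at -3.09 in that fetal course and at -1.49 at that E15.5 step. Slc25a15 in the fetal course was -0.22 without the stages with 1 array (-0.22 to 0.57 leaving out 1 pool). Uncalled postnatal slopes turned for Slc25a13 at equal housekeeping levels (0.25), and leaving out 1 pool or array set they ran from -0.24 to 1.30 for Cps1, -0.83 to 0.17 for Slc25a13 and -0.41 to 1.08 for Slc25a15. Without sets ending in _x_at, _s_at or _a_at, Otc fell to its dim set, with -0.19 at E18.5, 0.0086 at Day0 and -0.064 at Day7. Equal housekeeping levels moved the split of all called genes in the fetal course to 54.8% rising in place of 26.9%, with the median of all genes at 0.37, and quantile normalisation gave 41.5% there. After birth against before it, equal housekeeping levels gave 68% of calls higher in place of 52.7%. Quantile normalisation left 6 members called after birth against before it, without Otc. Read from the set shared with Gm5424, chosen after seeing the data, Ass1 was called in both, at 2.92 and 4.55. The cause of these changes was not tested. The number of pools limits the precision, and detection limits of dim sets (Ass1, Nags, and Cps1 and Arg1 up to E14.5) are unknown.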
